A study of Mus musculus with 2 samples.

Results

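*Egfl6*, *Npnt* and *Itga8* are 3 of the 27998 genes counted in cells sorted from healed mouse skin wounds. They encode EGF-like protein 6, nephronectin and the alpha 8 chain of integrin alpha 8 beta 1. They were chosen by symbol with measured values of these data in view, so their levels are given as descriptions and no test is made on them. The control library held Tomato+ cells of *SM22rtTA; tetO-Cre; R26-Tomato* mice, and the SM22-SmoM2 library held Tomato+ cells of *SM22rtTA; tetO-Cre; R26-SmoM2/Tomato* mice. Mice of both groups were 4 to 5 weeks old and received doxycycline chow at 20 g/kg from day 1 after wounding. Wounds were collected 3 days after complete re-epithelialization, and the dermis was separated with 20 mM EDTA. The promoter of *SM22α* (*Tagln*), active in smooth muscle and wound myofibroblasts, drives rtTA, which turns on Cre under doxycycline. Cre then switches on the red protein Tomato in both groups. The SM22-SmoM2 mice express SmoM2 as well, a Smoothened that is always active and drives the Hedgehog (Hh) pathway. The wounds of several mice were pooled into each library, so there was 1 library per group and the difference between groups cannot be told apart from that between libraries.

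EGFL6 and nephronectin are related secreted matrix proteins, each with EGF-like repeats, an Arg-Gly-Asp motif and a MAM domain. Both are ligands of integrin alpha 8 beta 1. In skin, hair follicle keratinocytes of the bulge deposit them in the basement membrane where the arrector pili muscle, the smooth muscle that raises the hair, inserts. The muscle carries integrin alpha 8, and so does the dermal papilla, the mesenchymal cluster at the base of the follicle. Nephronectin and integrin alpha 8 are also known from kidney development, and EGFL6 has been described in endothelial cells and in dermal fibroblasts.

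The stretches that carry the integrin-binding motif of the ligands are shown first. Each line gives coding bases 5′ to 3′ from GENCODE transcripts of GRCm38, with the codons for Arg-Gly-Asp in capitals.
Egfl6-201: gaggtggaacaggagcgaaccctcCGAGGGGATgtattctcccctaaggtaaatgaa
Npnt-201: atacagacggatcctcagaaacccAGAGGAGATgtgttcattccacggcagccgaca
The *Egfl6* window joins exons 8 and 9 of 12, and its capitals lie at chrX:166538421-166538429 on the minus strand. The *Npnt* window joins exons 9 and 10 of 13, with its capitals at chr3:132904665-132904673, also on the minus strand. An in-frame Arg-Gly-Asp was present in 1 of 1 coding transcript of *Egfl6* and in 6 of 6 of *Npnt*. The same 3 residues were also found in 1 of 2 coding transcripts of the receptor chain *Itga8*, so the motif alone does not mark a ligand. Transcripts whose coding part does not begin with ATG were counted but not searched. Absence from the other *Itga8* transcript is therefore not shown. The libraries count transcripts at their 3′ end, so the counts do not tell transcripts with and without a given exon apart.

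All 3 genes lie on minus strands of GRCm38. *Egfl6* (ENSMUSG00000000402) spans chrX:166523007-166585720 and overlaps no other annotated gene. *Npnt* (ENSMUSG00000040998) spans chr3:132881745-132950291. *Itga8* (ENSMUSG00000026768) spans chr2:12106632-12301922 and overlaps the antisense gene *E030013I19Rik*. That antisense gene (chr2:12300946-12312315) meets *Itga8* only at the 5′ end of *Itga8*, whereas the libraries count 3′ ends. The strand used in counting is not given in the sources used here, so reads from the shared stretch may not be told apart. *Itga8* also overlaps *Gm37701* on the same strand, which is not among the counted genes.

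After filters, 2856 control cells with 30103855 unique molecular identifiers (UMIs, 1 per captured transcript) and 1792 SM22-SmoM2 cells with 17814222 UMIs were compared, with median depths of 8607.5 and 8837.5 UMIs per cell. Marker genes placed 1090 control and 1098 SM22-SmoM2 cells in the fibroblast-like group. The endothelial-like group held 703 and 270 cells, the Schwann-like group 677 and 294, the muscle-like group (mural and smooth muscle) 273 and 94, and the immune-like group 82 and 33. Keratinocyte-like cells numbered 15 and 1, so the epithelial source of both ligands is hardly covered by these libraries. *Xist* and Y-linked UMIs occurred together in 143 control and 45 SM22-SmoM2 barcodes. Barcodes shared between the libraries could not be counted, because the barcode list covers all 737280 barcodes of the kit and is not tied to the cells. Levels below are UMIs of 1 gene in each 1000000 UMIs of a cell group (CPM), with exact Poisson 95% intervals. These and all other intervals cover counting error only. CPM values are compared between groups of cells for the same gene, not between genes.

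The 3 genes lay in different places. *Egfl6* was almost confined to fibroblast-like cells of the SM22-SmoM2 library, with 2035 of its 2135 UMIs in both libraries. Endothelial-like cells held most *Npnt* in the control library. *Itga8* was sparse everywhere, with 144 UMIs in both libraries, and its highest level was in a group of 46 SM22-SmoM2 cells that carry dermal papilla markers.

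**Figure D1:**
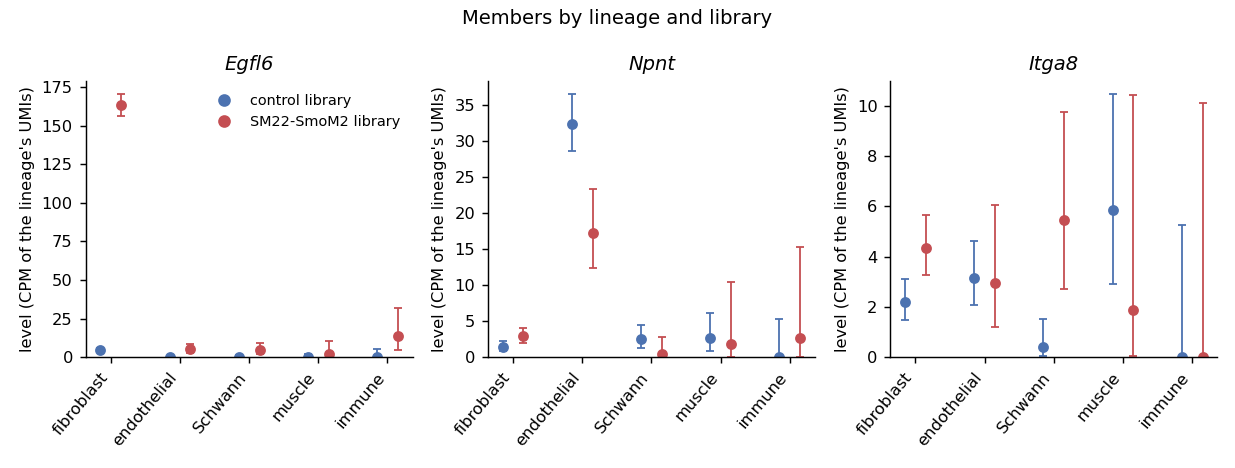
Level of each gene (CPM, vertical axes of different scale) in the 5 cell groups with at least 20 cells in each library, with points for the 2 libraries and bars for exact Poisson 95% intervals. *Egfl6* stands at 163 CPM in SM22-SmoM2 fibroblast-like cells and at no more than 13.7 CPM elsewhere, *Npnt* is highest in control endothelial-like cells at 32.4 CPM, and *Itga8* stays under 6 CPM in every group.

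Among the ligands, *Egfl6* had 69 UMIs in control fibroblast-like cells, 4.89 CPM (3.81 to 6.19). In the SM22-SmoM2 library it had 2035 UMIs, 163 CPM (156 to 170). The log2 ratio of SM22-SmoM2 over control was 5.06 (4.71 to 5.43), which ranked 18 from the highest among the 11522 genes with at least 50 UMIs in fibroblast-like cells. Cells with at least 1 UMI made up 3.49% of control and 28.2% of SM22-SmoM2 fibroblast-like cells, at median depths of 12468 and 10947.5 UMIs. With every cell thinned to 1500 UMIs the shares were 0.550% (6 of 1090) and 14.8% (162 of 1098). Schwann-like cells, taken as a type that should lack the gene, showed 0.148% and 0.340% at the same depth, so the SM22-SmoM2 fibroblast share lay above that background and the control share had an interval (0.202 to 1.19%) that overlapped it.

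Few other cells held *Egfl6*. Control endothelial-like and muscle-like cells had no *Egfl6* UMI, which allows up to 0.427% and 1.10% of cells with one at 1500 UMIs. In the SM22-SmoM2 library 12 UMIs lay in 6 endothelial-like cells, 10 in 4 Schwann-like cells and 5 in 1 immune-like cell. A single cell held 7 of the endothelial-like UMIs and another single cell 7 of the Schwann-like UMIs, so these levels rest on very few barcodes. Fibroblast-like cells accounted for 95.8% of control and 98.6% of SM22-SmoM2 *Egfl6* UMIs, against 47.5% and 70.2% of all UMIs.

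Fibroblast-like cells were split into sub-clusters, F1 to F15, with the 3 genes and 21 Hh, dermal papilla and Wnt genes left out of the clustering. Sub-clusters F1, F2, F8 and F15 had raised Hh markers (*Gli1*, *Gli2*, *Ptch1*, *Hhip*) and are called Hh-active-like, with 56 control and 736 SM22-SmoM2 cells. F9, with 46 SM22-SmoM2 cells and no control cell, also carried 12 of 12 markers of the dermal-papilla-type state and is called Hh-active II-like. Those 12 markers were not among the genes left out, so they could take part in forming F9 and are not independent of it. The other fibroblasts numbered 1034 and 316. F12 and F13, 16 control and 2 SM22-SmoM2 cells, had leading genes of other cell types and were left out.

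F8, led by *Egfl6*, *Wif1* and *Sox11*, held 1180 *Egfl6* UMIs in 154 SM22-SmoM2 cells, 768 CPM (725 to 813). In F8 84.4% of cells had a UMI, the median was 6.5 UMIs per cell and the highest 30. F1, led by *Wif1*, *Egfl6* and *Igfbp2*, had 512 UMIs in 147 cells, 356 CPM (326 to 388). F8 held 58.0% of SM22-SmoM2 fibroblast *Egfl6* UMIs while it held 12.3% of all fibroblast UMIs, and F1 held 25.2% against 11.5%. The gene was therefore spread unevenly over the Hh-active-like sub-clusters. F2, led by *Areg* and *Mmp13*, had 18.4 CPM and F15, led by *Mest* and *Wif1*, had 10.1 CPM. The intervals of F2 (13.5 to 24.3) and F15 (6.66 to 14.7) overlap each other and lie far under those of F1 and F8.

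Cycling fibroblasts (F6, led by *Ube2c* and *Ccnb1*) were counted among the other fibroblasts by the naming rule, which read both libraries together, although Hh targets stood at 261 CPM in their SM22-SmoM2 cells and 6.75 CPM in their control cells. *Egfl6* in F6 went from 2.89 CPM, 3 UMIs in 55 control cells, to 208 CPM (179 to 239), 188 UMIs in 67 SM22-SmoM2 cells. One F6 cell with 30 UMIs made up 16.0% of that sum. F9 had 45 *Egfl6* UMIs in 14 of 46 cells, 144 CPM (105 to 192), of which 1 cell held 16 UMIs. The order in the SM22-SmoM2 library was therefore F8, F1, F6, F9, and then F2, F5, F3 and F15, all under 20 CPM. Intervals of F6 and F9 overlapped. The control library had its highest level in F10, led by *Fbln7*, *Eln* and *Angptl1*, at 32.5 CPM from 27 UMIs in 10 of 81 cells, 1 of which held 9.

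**Figure D2:**
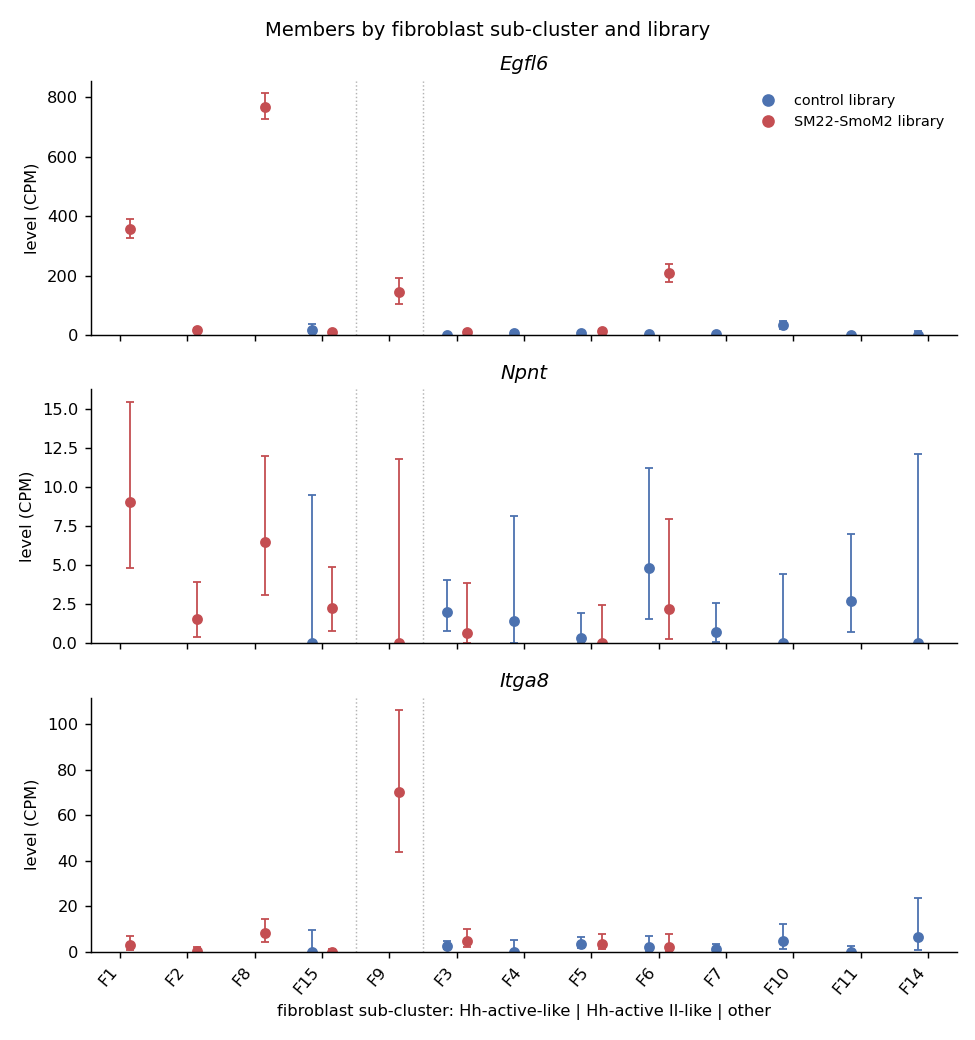
Level of each gene (CPM) in fibroblast sub-clusters with at least 20 cells in a library, with Hh-active-like sub-clusters at the left, the Hh-active II-like sub-cluster F9 between the dotted lines and other fibroblasts at the right, and bars for exact Poisson 95% intervals. *Egfl6* peaks in F8 at 768 CPM, *Itga8* in F9 at 70.3 CPM, and *Npnt* stays under 10 CPM with wide intervals.

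Within the SM22-SmoM2 library, where library and genotype do not differ, Hh-active-like cells had 214 CPM of *Egfl6* and other fibroblasts 57.1 CPM. That log2 ratio was 1.90 (1.70 to 2.11), and it was 4.19 when the cycling sub-cluster was left out of the other fibroblasts. By summed UMIs the Hh-active II-like cells lay under the Hh-active-like cells as a whole, with a log2 ratio of -0.57 (-1.03 to -0.15). At 1500 UMIs per cell the shares with *Egfl6* were alike, 19.6% (9 of 46) and 19.4% (143 of 736). Of the 45 Hh-active II-like UMIs, 16 lay in 1 cell, which the interval does not cover. Among Hh-active-like sub-clusters, F8 and F1 lay above F9 (144 CPM). F2 and F15, at 18.4 and 10.1 CPM, lay under it. Between libraries, other fibroblasts alone differed by a log2 ratio of 3.66, and by 1.33 (0.68 to 1.96; 35 and 58 UMIs) without the cycling sub-cluster, which held 188 of their 223 SM22-SmoM2 UMIs.

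*Egfl6* did not order the sub-clusters as the Hh targets did. Transcripts of *Gli1*, *Gli2*, *Ptch1* and *Hhip* together, whose genes encode pathway factors and feedback receptors induced by Hh signalling, stood at 530 CPM in F9, 396 CPM in F15, 324 CPM in F1, 261 CPM in F6, 230 CPM in F8 and 195 CPM in F2. F1, F6, F8 and F9, the 4 sub-clusters with most *Egfl6*, were all among these, as were F2 and F15 with little. F15 thus had more Hh target transcripts than F8 (intervals 372 to 420 and 206 to 255) and 10.1 against 768 CPM of *Egfl6*. In single SM22-SmoM2 cells thinned to 1500 UMIs, *Egfl6* was found in 18.3% (55 of 300; 14.1 to 23.2) of cells with an Hh target UMI and in 13.4% (107 of 798; 11.1 to 16.0) of cells without. Those intervals overlap. Only 300 cells kept an Hh target UMI at that depth, against 736 Hh-active-like cells, so the cells without one include Hh-active-like cells. The shares of single cells therefore cannot tell whether *Egfl6* follows the Hh targets.

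**Figure D3:**
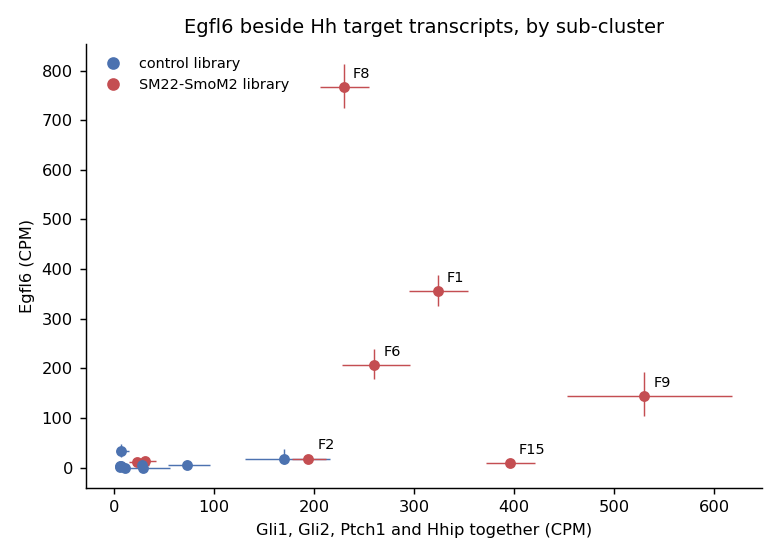
*Egfl6* (CPM, vertical axis) against the summed Hh targets *Gli1*, *Gli2*, *Ptch1* and *Hhip* (CPM, horizontal axis) for each fibroblast sub-cluster with at least 20 cells in a library, with exact Poisson 95% intervals on both. F8 is highest for *Egfl6* at 768 CPM with 230 CPM of Hh targets, and F15 has 396 CPM of Hh targets with 10.1 CPM of *Egfl6*; SM22-SmoM2 F3 and F5 and the control points carry no name.

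The promoter of *Egfl6* is printed because *Egfl6* moved with the activated Hh library. It is the RefSeq window of 300 bases, 250 before to 50 after the start, GRCm38.p6 chrX:166585667-166585966, minus strand, and the capitals mark a near match to the binding motif of the GLI factors.
Egfl6 promoter: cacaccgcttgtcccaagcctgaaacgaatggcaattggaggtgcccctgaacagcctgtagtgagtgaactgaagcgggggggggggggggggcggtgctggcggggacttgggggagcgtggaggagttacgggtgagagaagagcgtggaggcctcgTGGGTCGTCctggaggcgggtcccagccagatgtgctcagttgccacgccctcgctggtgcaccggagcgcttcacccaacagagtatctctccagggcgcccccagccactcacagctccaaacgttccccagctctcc
The GLI consensus GACCACCCA (reverse complement TGGGTGGTC) was searched on both strands. The match starts 90 bases before the start, lies on the opposite strand to the gene and differs by C4G, counted from the 5′ end of the motif. Of 32851 promoters of this length, 83 (0.253%) held the exact motif and 2214 (6.74%) held it with up to 1 mismatch. The 2 promoters of *Npnt* and that of *Itga8* had no match within 1 mismatch. A match of this kind describes the letters only.

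*Npnt* was a gene of the endothelial-like cells. In the control library it had 266 UMIs there, in 182 of 703 cells, 32.4 CPM (28.6 to 36.5). In the SM22-SmoM2 library it had 41 UMIs in 37 of 270 cells, 17.2 CPM (12.4 to 23.4). The log2 ratio was -0.91 (-1.42 to -0.43), and median depth was 9435 UMIs in the control and 7262.5 in the SM22-SmoM2 cells. Endothelial-like cells held 85.5% of control *Npnt* UMIs (266 of 311) and 51.2% of those in SM22-SmoM2 (41 of 80), while they held 27.3% and 13.4% of all UMIs.

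*Npnt* was lower in SM22-SmoM2 in each of the 4 endothelial-like clusters, and the interval of the ratio lay under 0 in 2 of them. In cluster A1, led by *Ccl21a* and *Fabp4*, it went from 38.7 to 19.1 CPM, a log2 ratio of -1.02 (-1.96 to -0.18). Cluster A11, led by *Cldn5* and *Egfl7*, went from 41.3 to 16.5 CPM, a log2 ratio of -1.32 (-2.80 to -0.15). Clusters A7 (*Lrg1*, *Emcn*) and A20 (*Plvap*, *Egfl7*) had ratios of -0.36 (-1.35 to 0.51) and -0.87 (-2.18 to 0.25), whose intervals hold 0. Cells called male had 34.1 and 18.6 CPM in control and SM22-SmoM2, and cells called female 29.8 and 15.9 CPM. At equal depth the counts were too few to settle it. With 1500 UMIs per cell, *Npnt* was found in 4.13% (29 of 703) of control and 3.33% (9 of 270) of SM22-SmoM2 endothelial-like cells, a log2 ratio of levels of -0.31 (-1.57 to 0.81). With 3000 UMIs the shares were 8.96% (63 of 703; 6.96 to 11.3) and 5.0% (13 of 260; 2.69 to 8.4), further apart but with overlapping intervals.

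**Figure D4:**
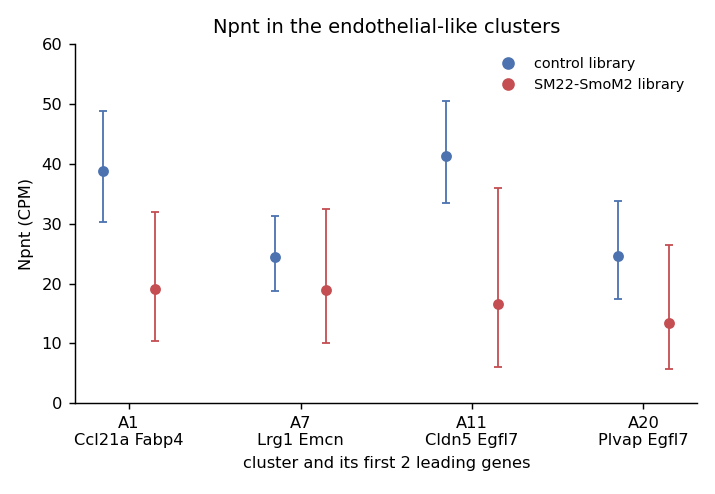
*Npnt* (CPM) in the 4 endothelial-like clusters, named by number and first leading genes, in the 2 libraries, with exact Poisson 95% intervals. The SM22-SmoM2 point is lower in all 4 clusters, and the gap is widest in A11 (41.3 against 16.5 CPM).

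In fibroblast-like cells *Npnt* had 21 UMIs in 1090 control cells, 1.49 CPM (0.922 to 2.28), and 36 UMIs in 1098 SM22-SmoM2 cells, 2.88 CPM (2.02 to 3.99). The log2 ratio of 0.95 (0.14 to 1.80) rested on Hh-active-like cells. They held 33 of the 36 UMIs, with 13 in F1 and 10 in F8. Other fibroblasts alone had a ratio of -0.94 (-3.34 to 0.81), from 20 control and 3 SM22-SmoM2 UMIs, an interval that holds 0. Within the SM22-SmoM2 library Hh-active-like cells had 3.99 CPM and other fibroblasts 0.769 CPM, a log2 ratio of 2.38 (0.70 to 4.73). Thinned to 1500 UMIs the counts were 8 and 0 UMIs, which gives at least 0.20. Endothelial markers summed to 34.8 CPM in F1, 9.76 CPM in F8, 54.3 CPM in F2 and 118 CPM in F15, against 3344 CPM in endothelial-like cells of the same library. At 1500 UMIs, *Npnt* was found in 0.367% of control and 0.638% of SM22-SmoM2 fibroblast-like cells. Schwann-like cells showed 0.295% and 0.340%, so the shares of all fibroblast-like cells at that depth are not told apart from background. Those shares rest on 4 and 7 fibroblast-like cells and on 2 and 1 Schwann-like cells. Without thinning, SM22-SmoM2 Schwann-like cells had 0.495 CPM (0.0125 to 2.76). F1 at 9.04 CPM (4.82 to 15.5) and F8 at 6.51 CPM (3.12 to 11.97) lay above that interval, while F2 and F15 overlapped it. Control Schwann-like cells had 2.55 CPM (1.32 to 4.45), which overlaps F8. F9 had no *Npnt* UMI, which allows up to 6.52% of its cells with one at 1500 UMIs.

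Elsewhere *Npnt* had 12 UMIs in control and 1 in SM22-SmoM2 Schwann-like cells, and 5 and 1 in muscle-like cells. The 15 control keratinocyte-like cells held 7 UMIs in 4 cells, 23.9 CPM (9.60 to 49.2), an interval that overlaps that of control endothelial-like cells. Basal keratinocytes are a known source of nephronectin in skin.

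The receptor chain *Itga8* had 31 UMIs in 26 control fibroblast-like cells, 2.20 CPM (1.49 to 3.12), and 54 UMIs in 46 SM22-SmoM2 cells, 4.33 CPM (3.25 to 5.65). Its log2 ratio was 0.98 (0.31 to 1.66). Without the 46 Hh-active II-like cells the ratio was 0.26, so these cells carried most of the difference. In F9 22 UMIs lay in 19 of 46 cells, at most 3 in a cell, 70.3 CPM (44.0 to 106). F9 held 40.7% of the *Itga8* UMIs of SM22-SmoM2 fibroblast-like cells and 2.51% of all their UMIs. The log2 ratio of F9 over Hh-active-like cells was 5.01 (4.05 to 6.0) and over other fibroblasts 4.29 (3.26 to 5.37), both within the SM22-SmoM2 library.

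At 1500 UMIs per cell, *Itga8* was found in 17.4% (8 of 46; 7.82 to 31.4) of F9 cells and in 0.911% of all SM22-SmoM2 and 0.183% of control fibroblast-like cells. Schwann-like cells at that depth showed 0.680% (2 of 294) in SM22-SmoM2 and 0 of 677 in control, which allows up to 0.443%. Of these fibroblast shares only that of F9 had an interval above that of SM22-SmoM2 Schwann-like cells. Those cells held 11 *Itga8* UMIs, 5.45 CPM, so they are a comparison and not a group without the gene. F8 had 13 *Itga8* UMIs in 10 of 154 cells, 8.46 CPM (4.50 to 14.5), and F15 none in 233 cells. Hh-active-like cells as a class were not above other fibroblasts, with a log2 ratio of -0.72 (-1.81 to 0.40).

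Whether the F9 cells are fibroblasts depended on the clustering, although they stayed together. F9 is led by the agouti gene *a*, *Ibsp* and *Cd24a*, and its median depth was 4530.5 UMIs. In 5 of 7 other clusterings 43 to 45 of these cells were called muscle-like, and in the other 2 clusterings 45 or 46 were called fibroblast-like. In all 7, 43 to 45 of them fell into 1 group of 46 to 59 cells without a control cell, with *Itga8* between 54.4 and 69.5 CPM. Fibroblast markers summed to 9825 CPM in F9, with 7 of 8 at 10 CPM or more. The sum was 46344 CPM in all SM22-SmoM2 fibroblast-like cells and 7673 CPM in muscle-like cells. It was also low in the Hh-active-like sub-clusters F8 and F1, at 19538 and 20859 CPM. By this sum F9 lay under F8 and F1 and nearer to muscle-like cells. The collagen genes *Col1a1* and *Col3a1* had 2239 and 3775 CPM in F9, 2093 and 3341 CPM in muscle-like cells and 11658 and 9479 CPM in Hh-active-like cells, and *Lox* was lower in F9 than in muscle-like cells (9.58 against 52.4 CPM). *Pdgfra*, a receptor gene of fibroblasts, had 137 CPM in F9 against 1.87 CPM in muscle-like cells and 102.5 CPM in Hh-active-like cells. *Dcn* had 731 CPM in F9, 238 CPM in muscle-like and 2735.5 CPM in Hh-active-like cells. In the same order *Lum* had 268, 95.4 and 875 CPM, *Dpt* 67.1, 22.4 and 177 CPM, and *Col1a2* 2597, 1829 and 9543 CPM. For *Dcn*, *Lum*, *Dpt* and *Col1a2*, F9 thus lay above muscle-like and under Hh-active-like cells. Muscle markers summed to 495 CPM in F9 with 8 of 10 at 10 CPM or more, against 12805 CPM in muscle-like cells, and *Myh11*, the smooth muscle myosin, was at 0. The pericyte marker *Rgs5* was found in 4 of 46 F9 cells, 77 of its 80 UMIs in 1 cell, and the 42 cells without it had 70.4 CPM of *Itga8*.

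Muscle-like cells, the group in which the arrector pili would fall, had 11 *Itga8* UMIs in 9 of 273 control cells, 5.85 CPM (2.92 to 10.5), and 1 UMI in 94 SM22-SmoM2 cells, 1.87 CPM (0.0474 to 10.4). The log2 ratio of -1.64 (-7.07 to 1.14) does not show a difference. Its sign turned to between 1.71 and 2.06 in the 5 clusterings that put the F9 cells into the muscle-like group. Genes of contractile smooth muscle summed to 1082 and 671 CPM in muscle-like cells in control and SM22-SmoM2, and pericyte genes to 11773 and 11585 CPM. Endothelial-like cells had 26 *Itga8* UMIs in control, 3.16 CPM, and 7 in SM22-SmoM2, 2.94 CPM, with a log2 ratio of -0.10 (-1.55 to 1.14). Schwann-like cells had 2 UMIs in 677 control cells and 11 UMIs in 7 of 294 SM22-SmoM2 cells, 0.425 and 5.45 CPM, a log2 ratio of 3.68 (1.49 to 6.90).

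Detection of ligand and receptor in the same cell rested on the few cells with *Npnt* or *Itga8*. Without thinning, *Egfl6* was found in 22 of 46 SM22-SmoM2 fibroblast-like cells with *Itga8*, 47.8% (32.9 to 63.1), and in 27.4% (24.7 to 30.2) of those without, at median depths of 9102 and 11001 UMIs. At 1500 UMIs the shares were 4 of 10 (12.2 to 73.8%) and 14.5% (12.5 to 16.8%), whose intervals overlap. At 3000 UMIs they were 9 of 18 (26.0 to 74.0%) and 20.5% (18.2 to 23.1%), whose intervals do not overlap. Whether the difference without thinning followed the sub-clusters was not tested. In F1 3 of 4 cells with *Itga8* had *Egfl6* against 53.8% of the rest, and in F6 2 of 2 against 33.8%. In F2, F3 and F5 none of 1, 5 and 5 cells with *Itga8* had it, against 11.4%, 5.31% and 12.7% of the rest. Among Hh-active-like cells 13 of 15 with *Itga8* had *Egfl6* (86.7%) against 33.0% of the rest, while within F8 10 of 10 with *Itga8* had *Egfl6* against 83.3% of the rest. Within F9 the counts were 7 of 19 (36.8%; 16.3 to 61.6) and 7 of 27 (25.9%; 11.1 to 46.3), and the intervals overlap.

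*Egfl6* was found in 17 of 32 SM22-SmoM2 fibroblast-like cells with *Npnt* (53.1%; 34.7 to 70.9) and in 27.5% of those without. Within F1, however, it was found in 6 of 12 with *Npnt* and 54.8% of those without, and within F8 in 7 of 9 and 84.8%. At 1500 UMIs it was found in 3 of 7 cells with *Npnt* and 14.6% of those without. *Npnt* and *Itga8* met in 1 fibroblast-like cell of that library, an F1 cell that also had *Egfl6*, and in no cell at 1500 UMIs. In control fibroblast-like cells *Egfl6* was found in 3 of 26 with *Itga8*, and *Npnt* in none of those 26. In control endothelial-like cells *Npnt* was found in 10 of 21 with *Itga8* (47.6%; 25.7 to 70.2) and 25.2% of those without, but the cells with *Itga8* had a median depth of 22702 UMIs against 9245.

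*Egfl6* is X-linked, and the libraries held cells of both sexes. Cells were called male by Y-linked UMIs without *Xist* and female by the reverse. In control fibroblast-like cells *Egfl6* had 5.72 CPM in 645 male and 2.37 CPM in 219 female cells, and SM22-SmoM2 ones had 167 CPM in 815 male and 69.1 CPM in 48 female cells. Both sexes were thus higher in the SM22-SmoM2 library. In F1 the levels were 400 CPM (362 to 441) in 98 male and 138 CPM (91.7 to 199) in 20 female cells. Sex and animal cannot be told apart in pooled wounds.

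Read against all genes, 1 of the 3 genes (*Egfl6*) was past a log2 ratio of 1 in fibroblast-like cells, where 5.03% of the 11522 genes with at least 50 UMIs were past 1 and 4.90% past -1 and the median gene lay at -0.06. This contrast was in view when the genes were chosen, so nothing is read from that count. In endothelial-like cells *Npnt* alone reached 50 UMIs and was not past -1, where 1.49% of 9958 genes were past -1 and 0.713% past 1.

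Other integrin chains gave the setting. Of 17 listed alpha chains 10 had 50 UMIs in fibroblast-like cells, of which 1 was past 1, 2 past -1 and 7 between, with a median log2 ratio of -0.35. *Itga6*, a laminin receptor chain, went from 8.79 to 41.6 CPM, a ratio of 2.24 (1.96 to 2.54). *Itga2b*, the chain of the platelet fibrinogen receptor, had -1.65 (-2.01 to -1.30) and *Itga9*, which binds tenascin C among others, -1.18 (-1.77 to -0.62). The common fibronectin receptor chain *Itga5* had -0.22 (-0.35 to -0.10). Of 8 beta chains 6 reached 50 UMIs, with 1 past 1, 1 past -1, 4 between and a median of -0.28. *Itgb1*, the partner of integrin alpha 8, went from 335 to 271 CPM, a ratio of -0.31 (-0.37 to -0.24), and 227 CPM in F9. Its transcript was therefore present in the cells with most *Itga8*. *Itgb4*, which pairs with alpha 6 in hemidesmosomes, had 1.15 (0.52 to 1.82), *Itgb3* -1.12 (-1.37 to -0.88) and *Itgb5* -0.55 (-0.63 to -0.48).

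The 5 other known ligands of integrin alpha 8 beta 1 did not share the rise of *Egfl6*: none was past 1, 2 were past -1 and the median was -0.72. *Spp1* (osteopontin) had a ratio of -1.92 (-2.13 to -1.72) and *Fn1* (fibronectin) -1.50 (-1.54 to -1.46). *Tnc* (tenascin C) had -0.72, and *Tgfb1*, whose latency peptide carries the Arg-Gly-Asp motif, 0.19 (0.07 to 0.31). Of the 4 genes of the Fraser complex, basement membrane proteins that hold nephronectin in place, *Frem1* alone reached 50 UMIs, with a ratio of 1.17 (0.80 to 1.55). It had 192 CPM in F9 and 11.7 CPM in Hh-active-like cells.

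Of 11 matrix genes listed as relatives with EGF-like domains, 1 was past 1, 1 past -1 and 9 between, with a median of -0.74. *Egflam* (pikachurin) had a ratio of 1.42 (0.98 to 1.87) and 86.2 CPM in F9, and *Efemp1* (fibulin 3) -2.11 (-2.29 to -1.93). The list also holds *Mfap4*, a microfibril protein with a fibrinogen-like rather than an EGF-like domain, at -0.87, and *Fbln2* (fibulin 2) at -0.65. Of 13 smooth muscle and arrector pili genes, 9 reached 50 UMIs, with 1 past 1, 1 past -1, 7 between and a median of 0.13. *Actg2*, enteric smooth muscle actin, had 1.37 (1.14 to 1.60), *Des* (desmin) -1.04 (-1.73 to -0.38), *Cald1* (caldesmon) 0.25 and *Tpm2* (a tropomyosin) -0.24. 

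**Figure D5:**
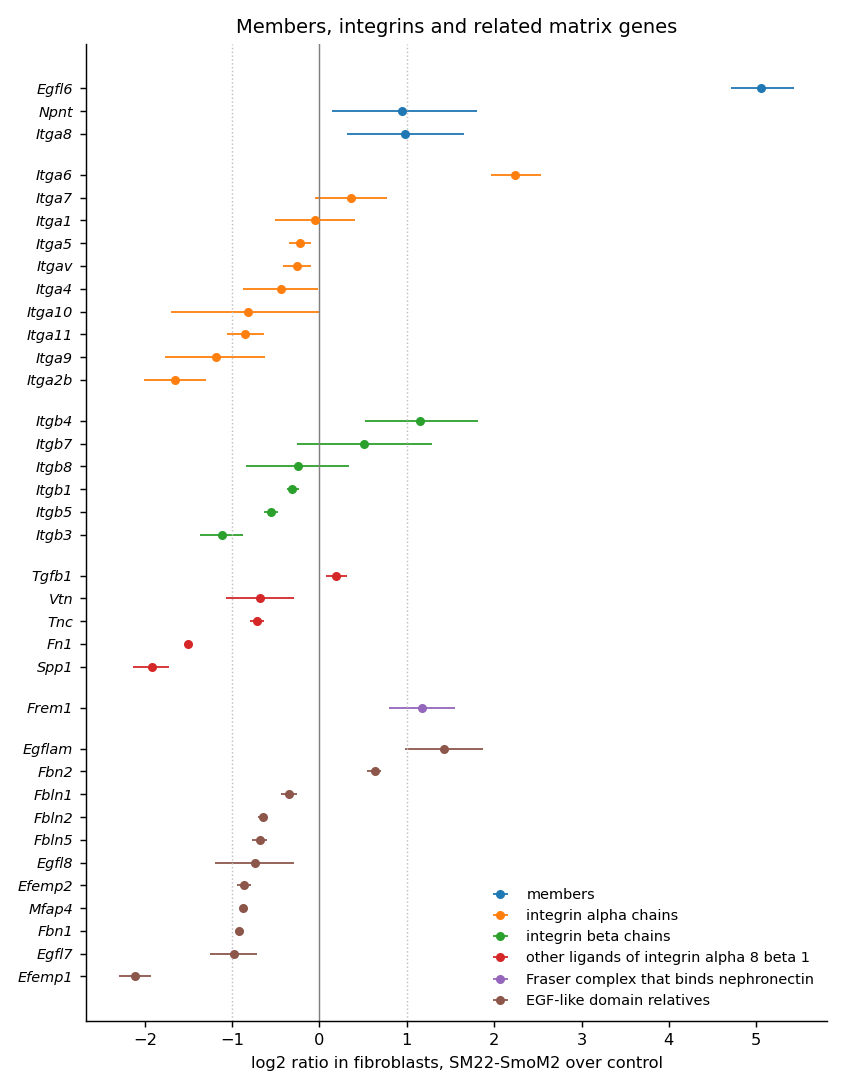
Log2 ratio of SM22-SmoM2 over control in fibroblast-like cells (horizontal axis) for the 3 genes and the listed integrin chains, ligands and matrix genes with at least 50 UMIs, with exact conditional 95% intervals as bars and dotted lines at -1 and 1. *Egfl6* lies at 5.06, *Itga6* at 2.24, and the other ligands of integrin alpha 8 beta 1 lie between -1.92 and 0.19.

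Of 18 dermal papilla genes 17 reached 50 UMIs, with 13 past 1, none past -1 and a median of 2.29. Some of them were picked by the study on these libraries, so their direction is not independent evidence. Several, such as *Rspo3*, *Lamc3* and *Prlr*, are also markers used to name F9. The cluster led by *a*, *Ibsp* and *Cd24a* was called fibroblast-like through 12 raised markers of that kind, with 2 fibroblast markers raised. *Lef1*, *Lamc3* and *Prlr* had 128, 92.6 and 163 CPM in F9. In SM22-SmoM2 Hh-active-like cells they had 0.968, 1.82 and 0.484 CPM, so their UMIs lie largely in F9. The count past 1 is therefore a description. *Lef1*, a Wnt transcription factor, had 5.85 (3.31 to 11.18) from 1 control UMI, *Sox18* 5.84, *Cxcr4* 3.94 and *Wif1*, a secreted Wnt inhibitor, 3.73. The Hh targets were past 1 in 4 of 4, with a median of 3.03. *Hhip* had 5.79, *Ptch1* 3.59, *Gli1* 2.46 and *Gli2* 1.98.

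The genes most like each of the 3 were sought by Pearson correlation of log2(CPM + 10) over 25 cell groups (fibroblast sub-clusters and other cell types by library) among 10687 genes with at least 200 UMIs. These groups share libraries and depth, so r is a description. *Egfl6* was most like *Cpne5* (r = 0.92), *Nrtn* (0.89), *Frzb* (0.88), *Sox11* (0.85) and *Dkk1* (0.81). *Npnt* was most like *2900026A02Rik* (0.90), *Ptprr* (0.89), *Chga* (0.88), *Chp2* (0.88) and *Dach1* (0.88). *Itga8* was most like *a* (0.92), *Col23a1* (0.86), *Rspo3* (0.85), *Ibsp* (0.85) and *Dcun1d4* (0.82). With 144 UMIs, *Itga8* itself lay under the limit of 200 set for the genes searched. It had 70.3 CPM in F9 and no more than 8.46 CPM in any other group, so its r values rest mainly on F9. *a*, *Ibsp* and *Rspo3* are leading genes of F9. No gene stood in 2 of these 3 lists.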

How the data were processed

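Single-cell RNA sequencing (10x Chromium v2) of Tomato+ dermal wound cells was analysed for 1 control and 1 SM22-SmoM2 library. The deposited matrices hold raw UMI counts, which the authors made with Cell Ranger against GRCm38. Cell Ranger and annotation versions and the counted strand are not given in the sources used here. EDTA lasted 1 h per the labels.

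Cells with fewer than 200 genes or over 10% mitochondrial UMIs were left out (22 control, 10 SM22-SmoM2). Cells were brought to 10000 UMIs each and logged, and k-means (50 starts, 20 principal components, 2000 variable genes) was run with K = 20, and K = 15 for fibroblasts, with 24 genes left out. Clusters were named by marker lists (3 markers at 10 CPM and 1.5 times the median cluster, or over 6 of the 12 Hh-active II markers). Scrublet marked 5 control and 11 SM22-SmoM2 barcodes as doublets; they were kept and their removal was an alternative. UMIs were summed by group and given as CPM. For ratios, 3 UMIs stood in for a 0, and no ratio is given where both counts are 3 or fewer. Promoters matched for 3 of 3 genes (RefSeq), and 27645 of 27998 gene identifiers were found in GENCODE.

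The genes named are *Egfl6*, *Npnt* and *Itga8*, up to 4 examples per listed group (largest ratio among called genes, then most UMIs), and the 5 genes most like each. Genes and lists were chosen with earlier results of these data known; the leading genes of clusters, values by sub-cluster of *Itgb1*, *Frem1*, *Egflam* and the lineage markers were added after values were seen. No test was possible with 1 library per group. In a check on simulated counts of 11522 genes in fibroblasts, 200 of them changed, the direction was right for 100% and intervals covered the simulated ratio of 96% of changed genes and 95.8% of the others. The simulated counts were Poisson, as the intervals assume, so this checks the calculation only. It does not cover UMIs that cluster in single cells or differences between animals. Python 3.11.15, numpy 2.4.6, scipy 1.17.1, scikit-learn 1.9.0 and scanpy 1.11.5 were used.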

Additional observations from a re-analysis of the deposited data

Results flagged for a closer look

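The log2 ratio of *Npnt* had opposite signs in 2 cell groups of the same libraries. The ratio of SM22-SmoM2 over control was -0.91 in endothelial-like cells and 0.95 in fibroblast-like cells. The fibroblast ratio rests on 21 control and 36 SM22-SmoM2 UMIs, and other fibroblasts alone gave -0.94 (-3.34 to 0.81). The endothelial ratio rests on 266 and 41 UMIs. With cells thinned to 1500 UMIs it was -0.31 (-1.57 to 0.81), a wide interval that also holds -0.91. Detection in all fibroblast-like cells at 1500 UMIs was at the level of the Schwann-like background. With 1 library per group the difference between them was not tested.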

How the results depend on the processing

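The alternatives were a 5% or no mitochondrial limit, removal of Scrublet barcodes, Leiden clustering (resolution 1, 20 neighbours), K = 12 and 10 or K = 30 and 20, the left-out genes kept in clustering, thinning, the mean of per-cell CPM, and cells of 1 sex. Leaving out cell classes, the cell with the most UMIs or barcodes with both sexes' transcripts was chosen after seeing the data. Of 306 values under them 242 were called the same, 61 moved and 3 reversed. Same means inside the counting interval of the main value. Bounds and counts of genes have no such interval and were judged by a fixed fold. The cause of these changes was not tested. Some alternatives hold fewer cells or UMIs. Under both mitochondrial limits, Scrublet removal, K = 30 and 20 and the left-out genes kept, 43 to 45 F9 cells were called muscle-like. Fibroblast values there do not include those cells. No paired analysis was possible because there was 1 library per group and no test.

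The log2 ratio of SM22-SmoM2 over control in fibroblasts reversed for *Npnt* to -0.94 (-3.34 to 0.81) in other fibroblasts alone and -1.85 also without cycling cells. Other fibroblasts held 20 control and 3 SM22-SmoM2 *Npnt* UMIs, of which cycling cells held 5 and 2, so neither value shows a fall. For *Egfl6* the ratio was 3.66 and 1.33 in these settings and 5.48 with cells thinned to 1500 UMIs. For *Itga8* it was 2.45 thinned, 0.26 without the Hh-active II-like cells, 0.14 with no mitochondrial limit and 0.21 with K = 30 and 20. In endothelial cells the *Egfl6* bound was 2.53 without the top cell and 2.21 without Scrublet barcodes, and the *Npnt* ratio -0.31 thinned. The *Itga8* ratio in muscle cells was 1.89 at the 5% limit, 1.71 with no limit, 2.03 without Scrublet barcodes, 1.98 with K = 30 and 20 and 2.06 with genes kept.

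Within SM22-SmoM2, the *Egfl6* ratio of Hh-active-like over other fibroblasts was 2.52 thinned, 2.13 by per-cell means, 4.19 without cycling cells, 4.08 with no mitochondrial limit, 4.26 with Leiden and 2.16 with genes kept, and that of *Npnt* at least 0.20 thinned (8 and 0 UMIs). The Hh-active II-like over Hh-active-like ratio of *Egfl6* was -0.10 with Leiden, and that of *Itga8* 7.17 thinned (9 and 1 UMIs). With K = 30 and 20 the ratios were 2.41 for *Egfl6*, a reversed sign, and 2.38 for *Itga8*, but 43 of the 46 F9 cells were then called muscle-like, so the 60 cells of that name were another set. The 5% and no mitochondrial limits, Scrublet removal and genes kept gave no value, since no Hh-active II-like fibroblast was called under them.

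In fibroblasts of SM22-SmoM2 lay 88.9% of *Egfl6* UMIs in female cells, 96.4% at the 5% limit, 95.4% with no limit, 96.8% without Scrublet barcodes, 96.2% with K = 30 and 20 and 96.4% with genes kept, and 100% in control female cells. For *Itga8* the SM22-SmoM2 share was 84.8% in male and 11.1% in female cells, 47.2% at the 5% limit, 44.6% with no limit and 46.6% without Scrublet barcodes, with K = 30 and 20 and with genes kept, and in control male cells 59.1%. For *Npnt* it was 10% in SM22-SmoM2 and 4.05% in control female cells. The SM22-SmoM2 female shares of *Itga8* and *Npnt* rest on 1 fibroblast UMI each, and the control female share of *Npnt* on 3. Fibroblasts were 815 of 1134 male and 48 of 244 female SM22-SmoM2 cells, so shares by sex also differ with the cells present.

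The share of SM22-SmoM2 fibroblasts with *Egfl6* was 21% at 3000 UMIs, 28.2% unthinned and 17.4% at the 5% limit, and 3.49% in control unthinned. That with *Itga8* was 4.19% unthinned, 0.328% at the 5% limit, 0.193% with K = 30 and 20 and 0.19% with genes kept, and in control 2.39% unthinned and 0.705% with no limit. That with *Npnt* was 2.91% and, in control, 1.93% unthinned. *Egfl6* was found in 3 of 3 cells with *Itga8* (100%; 29.2 to 100) at the 5% limit, and in 0 of 3 cells with *Npnt* (0%; 0 to 70.8) at that limit and 0 of 5 (0 to 52.2) without Scrublet barcodes. Genes past 1 were 322 with at least 200 UMIs and 280 thinned, and past -1 313 and 301. Depth limits *Npnt* in fibroblasts and *Itga8* outside F9, which rest on few UMIs.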
